A study of Mus musculus with 8 samples.

Results

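The 10 genes of mitochondrial fatty acid oxidation were followed through the cell types of the adult mouse heart. They were chosen by symbol and are 7 enzymes (Cpt1b, Cpt2, Acadl, Acadm, Acadvl, Hadha and Hadhb) and 3 transcriptional regulators (Ppara, Ppargc1a and Esrra), so 10 of the 32285 genes listed. All 10 were found in the data. RNA of single nuclei was counted in 10x Genomics droplet libraries of adult hearts that the labels divide by sex and by genotype, either wild type without a transgene (nTg) or carrying a Ccna2 transgene (Tg), described as constitutively expressing cyclin A2. The promoter of the transgene, the strain, the age and whether each library is 1 animal or several are not given in the sources used here. Of the 8 libraries, 5 had a matrix that matched its own barcode list and were analysed, namely nTg female 1, both Tg females (1 and 2) and both Tg males (1 and 2). The other 3 held copies of 3 of these matrices and were not used here.

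Long-chain fatty acids are the main fuel of the adult heart. Acyl groups cross the inner mitochondrial membrane as carnitine esters, made by carnitine palmitoyltransferase 1 (Cpt1b is its muscle form, Cpt1a the form of liver and many other tissues) and turned back into acyl-CoA by Cpt2. Each round of β-oxidation starts with an acyl-CoA dehydrogenase chosen by chain length (Acadvl for very long, Acadl for long, Acadm for medium chains), and for long chains the remaining steps are carried out by the trifunctional protein, whose α and β subunits are encoded by Hadha and Hadhb. The nuclear receptors PPARα (Ppara) and ERRα (Esrra), with their coactivator PGC-1α (Ppargc1a), are known to switch these enzymes on in heart muscle.

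Barcodes with at least 200 genes and under 5% mitochondrial counts were kept as nuclei, called doublets were removed, and nuclei were grouped by similarity and named by marker genes. Such a name means resemblance to a marker list. The libraries held between 25045167 and 38593706 UMIs (unique molecules counted) and gave between 5773 and 8817 nuclei. Cardiomyocyte nuclei, identified by Ttn, Ryr2, Myh6 and similar genes, numbered 1123, 1937, 907, 1267 and 1173 in the order of libraries given above, with 5990433 to 13141519 UMIs in each sum. Levels are given as CPM, counts per 1000000 UMIs of the summed nuclei of a type, as mean ± SD over 5 libraries unless stated. The Ccna2 level of cardiomyocytes contradicted 2 labels: it was 448 CPM in the library labelled nTg female 1 and 0.533 CPM in the library labelled Tg female 1, against 237 CPM and 144 CPM in the 2 male libraries and 848 CPM in Tg female 2. Every direction drawn from the genotype labels carries that limit. Between 14 and 28 barcodes were shared by any pair of libraries.

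Windows from 250 bases before to 50 after the start were matched in RefSeq (GRCm38.p6) for 9 of the 10 genes. Hadha (chr5:30118304-30155162, minus strand) and Hadhb (chr5:30155248-30184593, plus strand) lie head to head, and the 85 bases between them at chr5:30155163-30155247 are shown first because both subunits start from them. The line is given on the plus strand, toward Hadhb, with each GGGCGG in capitals.
Hadha-Hadhb: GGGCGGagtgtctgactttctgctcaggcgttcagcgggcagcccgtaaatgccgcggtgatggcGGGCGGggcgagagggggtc
GGGCGG was searched on both strands and was present in 6 of the 9 windows, those of Acadl, Cpt2, Hadha, Hadhb, Ppara and Esrra, against 35.7% of all 32851 windows. The windows of Hadha and Hadhb overlap and share their matches. The 120 bases before the start of Acadl (chr1:66863310-66863429, minus strand) are shown as the window with 4 matches, all in the reverse orientation CCGCCC.
Acadl: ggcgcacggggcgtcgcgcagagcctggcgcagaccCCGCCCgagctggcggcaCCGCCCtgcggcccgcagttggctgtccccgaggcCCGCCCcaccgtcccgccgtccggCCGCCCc
The windows of Ppargc1a, Acadm and Acadvl had no match. The 120 bases before the start of Ppargc1a at chr5:51567727-51567846 (minus strand) are shown. This gene was at least 28.3 times lower in each of the other cell types compared.
Ppargc1a: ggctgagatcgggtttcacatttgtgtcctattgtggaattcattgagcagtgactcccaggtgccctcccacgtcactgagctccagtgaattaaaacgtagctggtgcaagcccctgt
G and C made up 48% of the 250 bases upstream of Ppargc1a and 68% of those upstream of Acadl, with a median of 52.4% over all windows. Upstream of Ppara they made up 76.4%, and its window had a match. Ppara was at least 21.6 times lower in each of the other cell types compared. A relation between these sequences and the levels was not tested.

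The extended site AAGGTCA, which ERRα is known to bind, was searched on both strands and was found in the window of Acadm alone, against 4.72% of all windows. It is shown in capitals, in reverse orientation as TGACCTT, at the far end of the window (chr3:153944834-153944893, minus strand).
Acadm: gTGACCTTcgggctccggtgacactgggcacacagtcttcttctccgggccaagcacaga
The shorter AGGTCA, contained in the longer motif, was found for Acadm and Acadvl, against 16.3% of all windows. The direct repeat of AGGTCA spaced by 1 base (DR1), the element known for PPARα, was in none of the 9, against 0.0396% of all windows. These matches describe letters in a short window only.

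Among the carriers of acyl groups, Cpt1b (chr15:89416405-89425863) was counted mainly in cardiomyocytes, while UMIs of Cpt2 (chr4:107903981-107923610) were counted in every type. How much of these counts in other types is RNA carried over from cardiomyocytes was not tested. In cardiomyocytes Cpt1b was at 255 CPM and 242 CPM in Tg males 1 and 2, 255 and 196 in Tg females 1 and 2, and 201 in nTg female 1. The other 7 types with at least 50 nuclei in every library (pericytes, smooth muscle, fibroblasts, endothelial, endocardial and lymphatic endothelial nuclei, and macrophages) had means between 5.71 and 9.87 CPM, so that cardiomyocytes were 23.3 to 40.3 times higher. Cpt2 was at 43.1 ± 5.61 CPM in cardiomyocytes and between 8.47 (smooth muscle) and 19.2 CPM (lymphatic endothelium) in the others, a ratio of 2.24 to 5.09. Cpt1a, the other isoform of the first step, stood at 144 CPM in cardiomyocytes and between 40.4 (pericytes) and 95.1 CPM (macrophages) in the same 7 types. Per kb of gene length, Cpt1a was at 2.27 CPM per kb in cardiomyocytes and 0.637 to 1.499 in the others, where Cpt1b was at 0.603 to 1.04. Without that scaling, Cpt1a was at 40.4 to 95.1 CPM in the others and Cpt1b at 5.71 to 9.87. UMIs count molecules, and whether introns were counted is not given. Here and below, the scale per kb therefore does not measure abundance. By the same scale Cpt1b was at 24.3 CPM per kb in cardiomyocytes, the highest of the 10 genes, and Cpt2 at 2.19, the lowest.

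UMIs of the 3 acyl-CoA dehydrogenases were counted in every type, with the highest levels in cardiomyocytes. How much of the counts in other types is RNA carried over from cardiomyocytes was not tested. Acadm (chr3:153922357-153944632) had a level of 293 ± 30.2 CPM in cardiomyocytes, Acadl (chr1:66830839-66863277) one of 232 ± 32.5 and Acadvl (chr11:70010183-70015411) one of 57.7 ± 10.7. Per kb of gene, the levels were 13.1, 7.14 and 11.04 CPM per kb. Over the 7 other types Acadl ranged 1.41-fold, from 67.4 CPM in fibroblasts to 95.1 in endothelial nuclei. Acadm ranged 1.76-fold, from 57.9 CPM in fibroblasts to 101.9 in smooth muscle, and in fibroblasts all 5 libraries lay below all 5 of the next type up, endocardial nuclei. Acadvl ranged 1.32-fold, from 18.4 to 24.3 CPM.

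The subunits of the trifunctional protein moved together across types. Hadha was at 461 ± 75.2 CPM in cardiomyocytes and Hadhb at 283 ± 54.4 (12.5 and 9.63 CPM per kb). Outside cardiomyocytes Hadha was between 83.7 CPM in fibroblasts and 106.8 in endothelial nuclei, and Hadhb between 48.2 in endocardial nuclei and 65.2 in endothelial nuclei. Cardiomyocytes exceeded the other types 4.31 to 5.51 times for Hadha and 4.34 to 5.86 times for Hadhb. Over the 40 sums of a type and library, the log2 levels of the pair had a Pearson r of 0.96, the highest of the 45 pairs among the 10 genes (the sums share libraries and the cardiomyocyte step, and no test was made).

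The regulators split in the same way as the enzymes. Ppara (chr15:85734983-85802819), the receptor for fatty acids, was at 398 ± 77.3 CPM in cardiomyocytes, and at 18.4 CPM or less in each of the 7 other types. Ppargc1a (chr5:51454250-51567726), the coactivator, was at 783 ± 97.1 CPM in cardiomyocytes (6.90 CPM per kb, against 5.87 for Ppara and 8.97 for Esrra), and at 4.52 CPM in pericytes and at most 27.7, in smooth muscle. Esrra (chr19:6910977-6921813), the partner receptor, was at 97.2 ± 11.9 CPM in cardiomyocytes and 2.37 times lower in pericytes (41.0 ± 4.80). Esrra was at 35.9 ± 2.99 CPM in macrophages, against 17.7 ± 2.60 in fibroblasts and 16.8 ± 2.24 in endothelial nuclei, and neither pericyte nor macrophage libraries overlapped those of these 2 types.

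**Figure D1:**
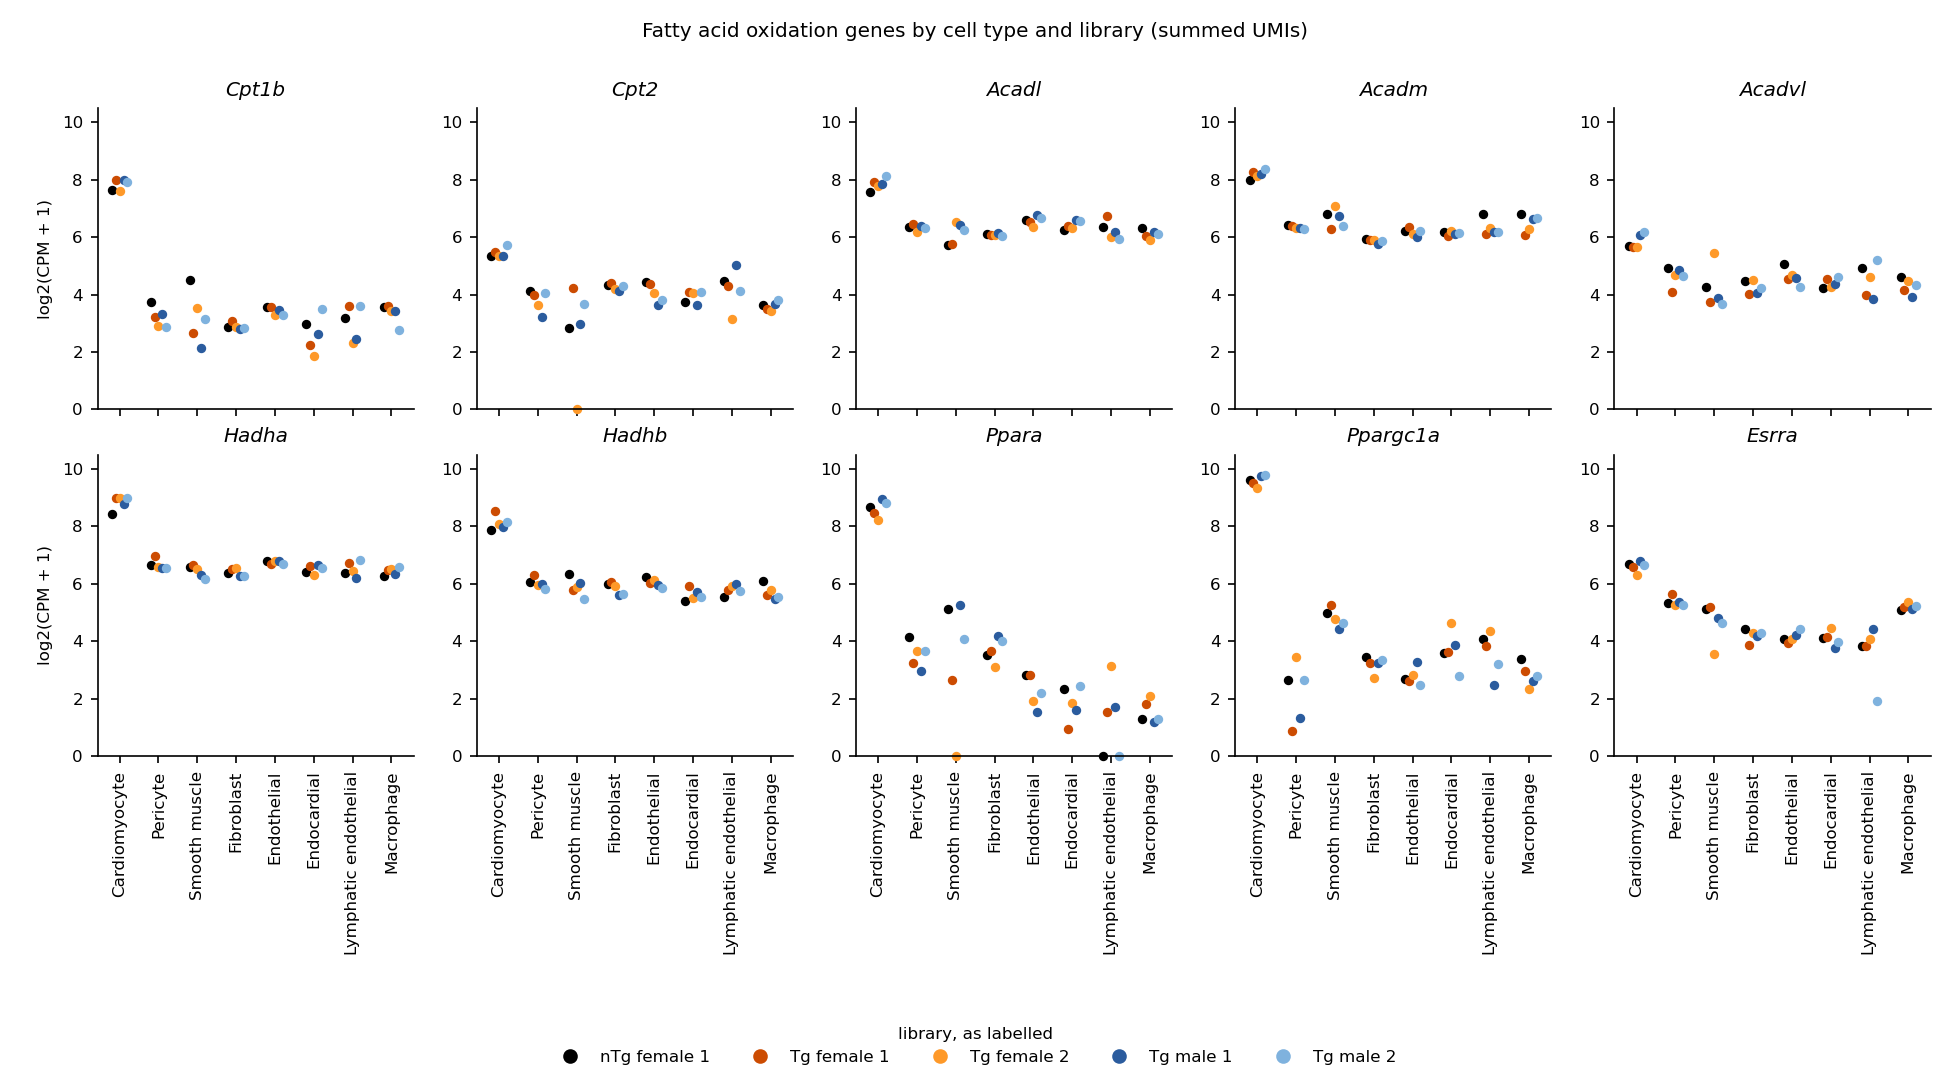
Each panel is 1 gene, with log2(CPM + 1) of the summed nuclei on the vertical axis, 8 cell types on the horizontal axis and 1 point per library. For all 10 genes every cardiomyocyte point lies above every point of the other 7 types. The gap is widest for Cpt1b, Ppara and Ppargc1a.

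For all 10 genes the lowest cardiomyocyte library was above the highest library of each of the 7 other types. Below that step, the highest of the 7 type means was 9.25 times the lowest for Ppara, 6.12 times for Ppargc1a and 3.14 times for Esrra, and 1.28 to 2.27 times for the 7 enzymes. Types next to each other in the order of means mostly overlapped: of 60 such pairs, 58 overlapped between libraries and 2 did not. One is the step of Acadm into fibroblasts. The other is Ppara, at 10.9 ± 3.78 CPM in pericytes (6.77 to 16.6) and 4.06 ± 1.88 in endothelial nuclei (1.92 to 6.03). Fibroblast Ppara, at 12.4 ± 3.70 CPM, lay next to that of pericytes and overlapped it, whereas macrophages had 1.99 ± 0.856 CPM from 13 UMIs in all. The clusters were built without these 10 genes, yet types were defined by other genes of the same nuclei, so these differences are given without a test.

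The low levels outside cardiomyocytes stand beside RNA of cardiomyocyte markers in the same nuclei. The 8 listed markers summed to between 40369 and 51701 CPM in cardiomyocytes and to between 1272 and 2968 CPM in the 7 other types, and none of the 8 was at 0 there. The percentages differed by gene. Ttn was at 0.674 to 1.30% of its cardiomyocyte level, Tnnt2 at 3.47 to 5.14%, Tnni3 at 16.3 to 27.5% and Myl2 at 35.8 to 57.2%. Ppara (0.501 to 4.63%), Ppargc1a (0.578 to 3.53%) and Cpt1b (2.48 to 4.29%) stayed below the highest value of Tnnt2. The means of the other 7 genes, at 13.4 to 44.6%, lay within the span of Pln, Tnni3, Actc1 and Myl2 (7.54 to 57.2%). Within single libraries some values were above all 8 markers. Cpt2 and Acadvl were so in 3 of 5 lymphatic endothelial libraries each, from 40 and 44 UMIs in all. Cpt2 in fibroblasts, Acadm in smooth muscle and Esrra in macrophages were so in 2 of 5. In endothelial nuclei no gene was above all 8 in any library. The part of carried-over RNA in these levels was not tested.

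**Figure D2:**
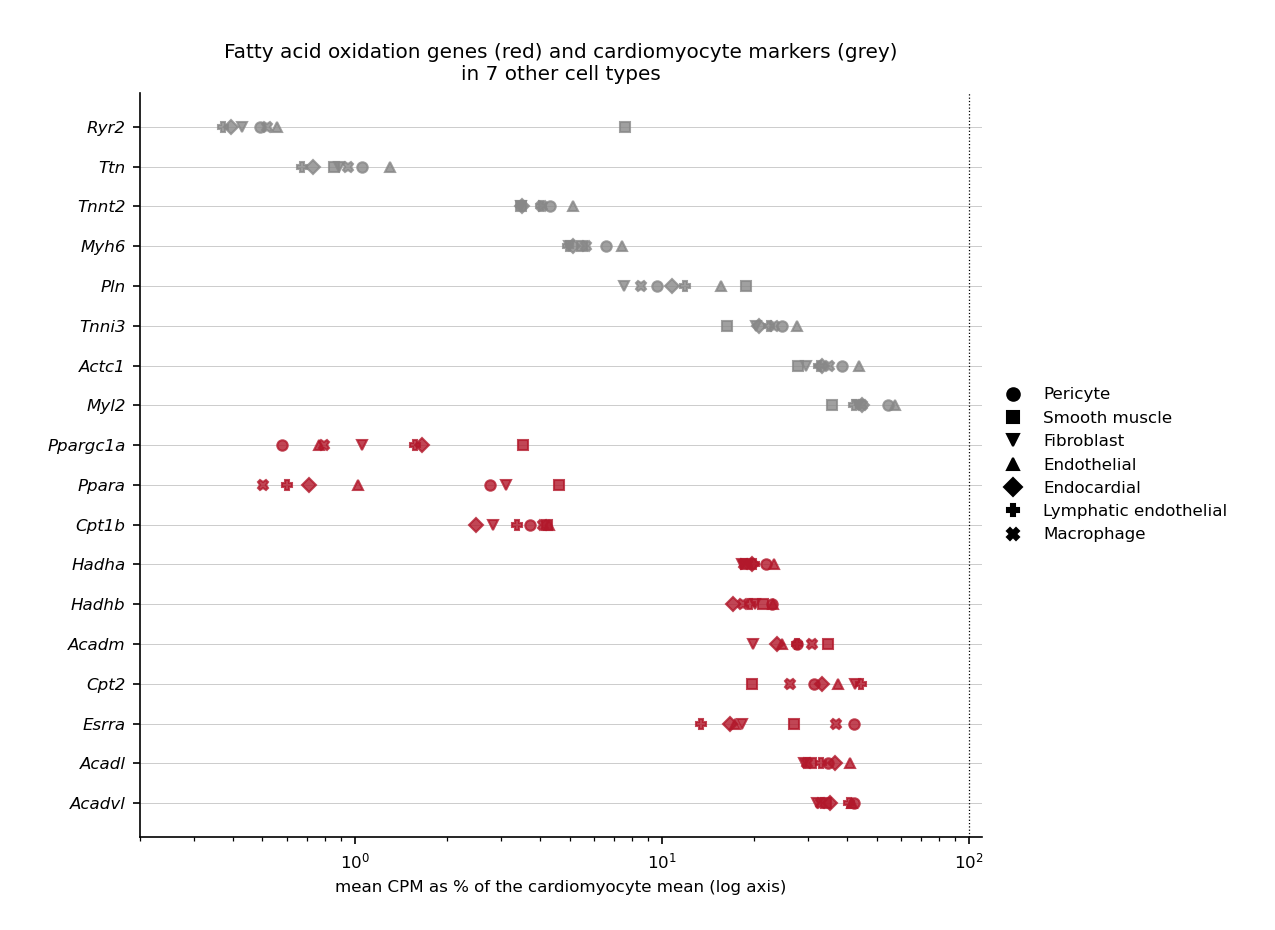
The horizontal axis (log scale) is the mean CPM of a type as a percentage of the cardiomyocyte mean, for the 10 genes in red and 8 cardiomyocyte markers in grey, with 1 symbol per type. The isolated grey square is Ryr2 in smooth muscle, at 7.57%, against at most 0.557% in the 6 other types.

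The levels were also set beside Myl2 across types. Over the 7 types, the mean level of Hadha had a Pearson r of 0.86 with that of Myl2, Acadl one of 0.72 and Acadvl one of 0.67. For Ppargc1a it was -0.79, for Acadm -0.40, for Ppara -0.36 and for Esrra 0.21. These are descriptions over 7 points that share libraries.

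A UMI of Ppargc1a was present in 89.9 to 95.6% of cardiomyocyte nuclei of a library and in 0.857 to 1.81% of endothelial nuclei. The median depth was 5912 to 8023 UMIs for cardiomyocyte and 1580 to 2210 for endothelial nuclei, so each nucleus was also thinned to 1000 UMIs, which left out 2 to 30 cardiomyocyte and 15 to 113 endothelial nuclei per library. After thinning the shares for Ppargc1a were 46.0 to 53.7% and 0.461 to 0.779%. For Hadha they were 28.6 to 41.0% against 9.16 to 10.4%, and for Esrra 7.13 to 10.3% against 1.18 to 1.89%. Thinned Esrra shares were 2.77 to 4.42% in macrophages and 2.85 to 5.25% in pericytes, above every endothelial library.

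The 3 small classes had few nuclei. Schwann nuclei (23 to 51 per library) had 175 CPM of Ppargc1a and 64.8 of Ppara, but also 13.9% of the cardiomyocyte level of Ttn and 12.4% of that of Ryr2. T and NK lymphocytes had no Ppara UMI in any library. Mesothelial nuclei (3 to 48 per library) had no Cpt1b UMI and 57.4 ± 29.2 CPM of Esrra.

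Other genes of the pathway showed both patterns. Esrrg, a receptor related to Esrra, was at 1498 CPM in cardiomyocytes and at most 77.4 in the 7 other types. Ppargc1b, the relative of Ppargc1a, was at 417 CPM in cardiomyocytes and still at 185 in pericytes and 151 in smooth muscle, where the corresponding levels of Ppargc1a were 4.52 and 27.7. Pparg, a receptor known for lipid storage and for endothelial fatty acid uptake, was opposite to Ppara, with 508 CPM in endothelial and 268 in lymphatic endothelial nuclei against 56.7 in cardiomyocytes. The acyl-CoA synthetase Acsl1 stood at 414 CPM in cardiomyocytes and 23.2 to 78.6 elsewhere, and the carnitine carrier Slc25a20 at 90.9 and 8.43 to 20.7. The later enzymes Acaa2 (130 CPM), Hadh (82.5) and Echs1 (52.6) were 32.6 to 53.7, 16.9 to 29.1 and 15.6 to 23.5 CPM in the 7 other types.

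Within cardiomyocytes the coefficient of variation of the 10 genes between libraries was from 10.3% (Acadm) to 19.4% (Ppara). The library labelled Tg male 2 was the highest of the 5 for 6 of the 10 genes, and among 5475 genes with at least 20 CPM in every library 18.2% were highest there. The library labelled Tg female 2 was the lowest for 5 of the 10, and 36.9% of those 5475 genes were lowest there, so that share is near the background.

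The next comparison asked whether the sexes differ, the question the study's title names. In the order nTg 1, Tg 1 and Tg 2, Ppara was at 404, 353 and 296 CPM in the female libraries, against 494 and 445 CPM in males 1 and 2. Ppargc1a was at 787, 737 and 645 CPM in the female libraries and 873 and 874 CPM in the male ones. Acadvl was at 50.9, 49.4 and 49.9 CPM in the female and 66.3 and 72.0 CPM in the male libraries. For these 3 genes all female libraries lay below both males, as did 9.52% of the 16017 genes tested, and for none of the 10 did all lie above (11.8% of genes). Esrra was lower in both females labelled Tg (94.7 and 78.1 CPM) than in the males (109.5 and 100.9), with nTg female 1 at 102.9 CPM between them.

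None of these differences passed the test. The test was edgeR's quasi-likelihood fit with a genotype term, whose contrast of the sexes comes from the 4 libraries labelled Tg alone. These include Tg female 1, whose Ccna2 level of 0.533 CPM goes against its label. They leave out nTg female 1, at 448 CPM of Ccna2. How far genotype enters this contrast of the sexes was not tested. The log2 difference of female minus male was -0.57 for Ppara (SE 0.20, edgeR adjusted p 0.62). It was -0.38 for Ppargc1a (SE 0.20, edgeR adjusted p 0.80) and -0.52 for Acadvl (SE 0.17, edgeR adjusted p 0.56). The background was 4 of 16017 genes called (0.025%), and none of the 10 was among them. Of the 10 genes, 8 had a negative difference, and their median was -0.19 against 0.01 over all genes tested, of which 48.4% were negative. The positive ones were Hadha (0.06, SE 0.19) and Hadhb (0.23, SE 0.22). Without Tg female 1, Ppara was called, at -0.74 (SE 0.15, edgeR adjusted p 0.047), and the number of genes called rose from 4 to 400. Over the other 12 alternatives its adjusted p was 0.32 to 1 (edgeR, or DESeq2 in 1 of them), and its difference was between -0.74 and -0.43 over all 13. With the library labelled nTg left out it was -0.57 (SE 0.19, edgeR adjusted p 0.59). Nothing in the labels says that libraries are separate animals, so p-values measure the spread between these libraries.

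**Figure D3:**
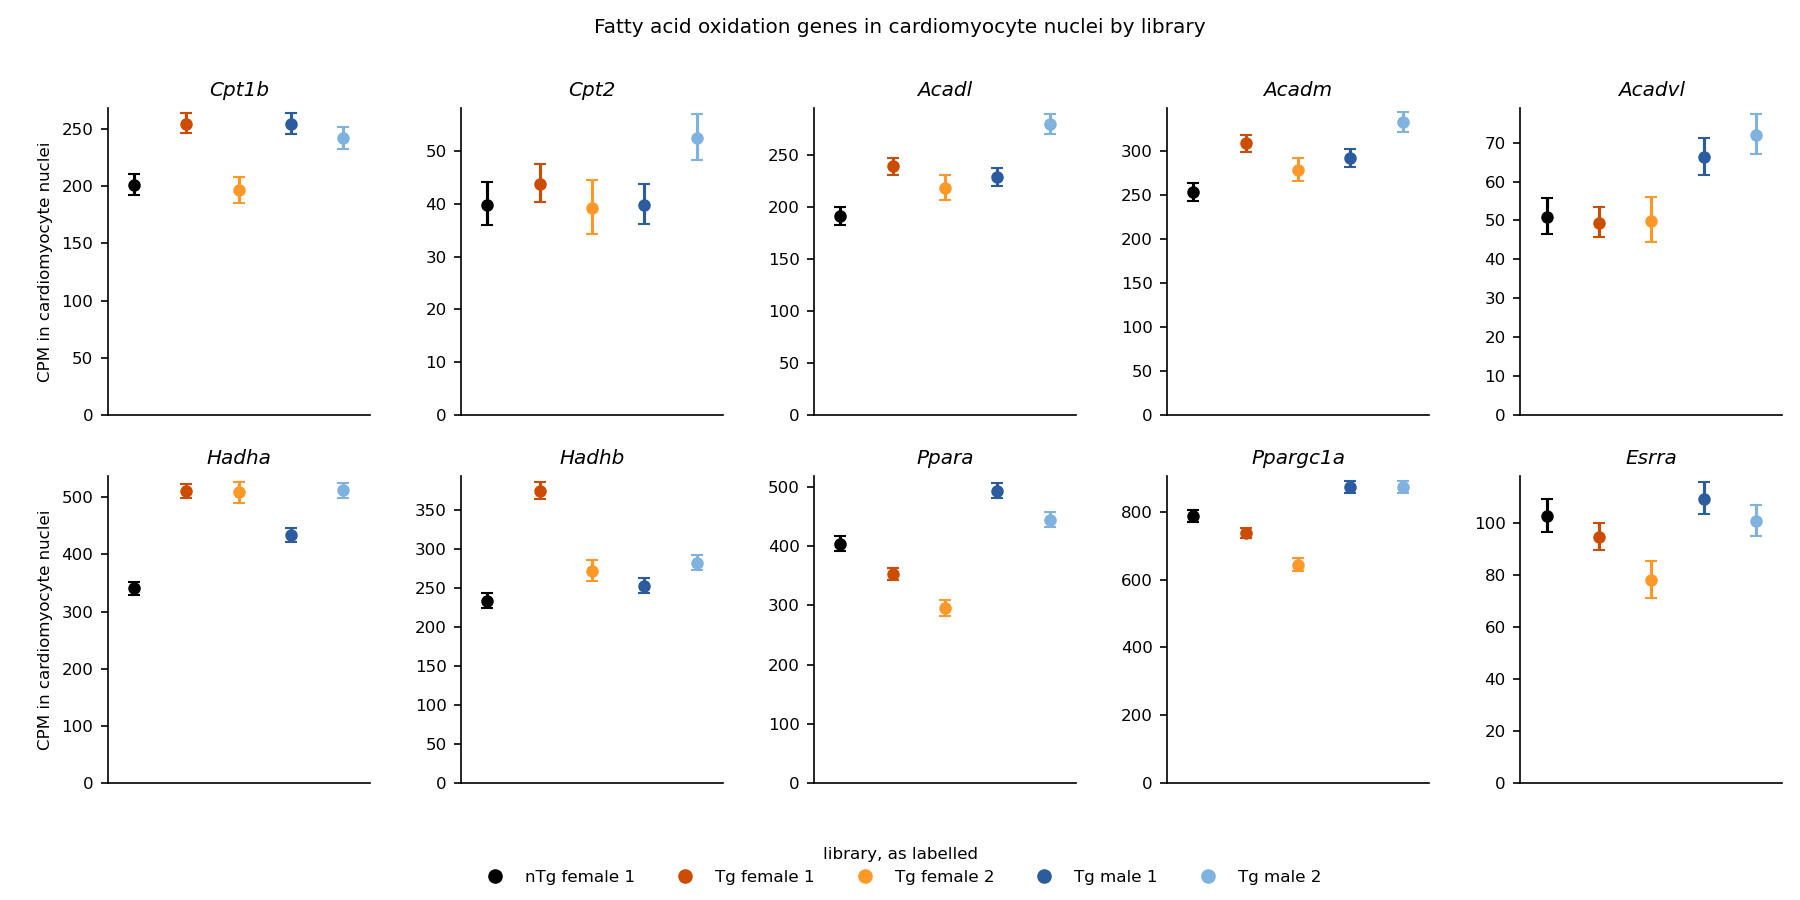
CPM in cardiomyocyte nuclei for each gene (vertical axis from 0), with 1 point per library and exact Poisson 95% intervals, which cover counting error only. Both male libraries lie above the 3 female ones for Acadvl, Ppara and Ppargc1a, and the library labelled nTg female 1 is lowest for Acadl, Acadm, Hadha and Hadhb.

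A list of 7 genes outside the pathway that are known PPARα targets was read beside them. All 7 had a negative difference, with a median of -0.57, and 0 of 7 passed the test. Pdk4, the kinase that shuts pyruvate out of oxidation, was at 74.7, 221 and 411 CPM in the female libraries (in the same order) and 897 and 769 CPM in the male ones. Its log2 difference was -1.45 (SE 0.29, edgeR adjusted p 0.36). Angptl4, an inhibitor of lipoprotein lipase, had -0.90 (SE 0.31, edgeR adjusted p 0.62), Plin5, a lipid-droplet protein, -0.57, and Ucp3, a mitochondrial carrier, -0.34. Of these 7, 6 had all female libraries below both males, against the 9.52% of all genes tested given above. This list was chosen with earlier results of these data known, so the count is a description and not a test. The other lists had none called: 0 of 4 genes of the carnitine shuttle and acyl-CoA entry, 0 of 8 further β-oxidation enzymes, 0 of 3 of electron transfer, 0 of 7 other receptors and coregulators and 0 of 3 of malonyl-CoA and energy sensing. Their medians were -0.17, -0.07, -0.10, -0.18 and -0.19. All female libraries lay below both males for 2 of 4, 1 of 8, 0 of 3, 1 of 7 and 1 of 3 of their genes.

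Several marker lists of other cells also differed between the sexes in the cardiomyocyte sums. Of 14 such lists, 5 were higher in all 3 female libraries than in both male ones, 1 was lower and 8 overlapped. The smooth muscle list summed to 754 to 1020 CPM in the female libraries and 594 to 692 in the male ones, the endocardial list to 622 to 779 against 442 to 549. The pericyte list summed to 258 to 319 CPM against 206 to 219, the lymphatic endothelial list to 146 to 209 against 131 to 144 and the B lymphocyte list to 0.838 to 1.502 against 0.467 to 0.547. The adipocyte list was the lower one, at 170 to 262 CPM against 330 to 360. In nTg female 1 and in Tg male 2, 5 of its 6 genes were at 0, so those sums come from 1 gene. Of the 6 genes of the B lymphocyte list, up to 3 were at 0 in a library. The endothelial (35.5 to 44.1 against 41.3 to 42.5 CPM) and fibroblast lists (922 to 1267 against 797 to 950) were among those that overlapped. The part of these cells' RNA in the differences between the sexes was not tested.

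**Figure D4:**
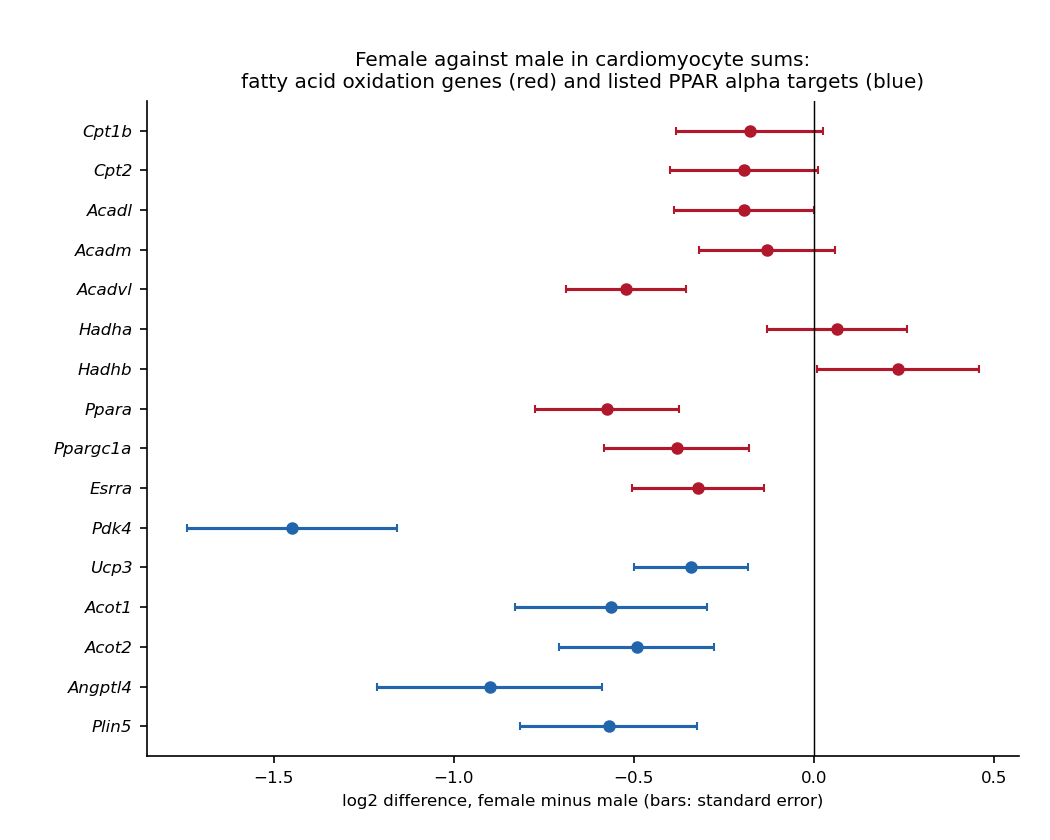
Log2 difference of female minus male libraries in cardiomyocytes (horizontal axis, points with standard errors) for the 10 genes in red and 6 listed PPARα targets in blue. All points but those of Hadha and Hadhb lie below 0, with Pdk4 at -1.45 farthest out. None passed the adjusted threshold of 0.05.

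The other cell types gave no call among the 10 genes. The share of all tested genes called was 0.289% in endocardial, 0.164% in endothelial, 0.367% in fibroblast, 0.435% in lymphatic endothelial, 0.0882% in macrophage, 0.181% in pericyte and 0.984% in smooth muscle nuclei. The median difference of the 10 genes (6 to 10 of them passed the low-count filter) was between -0.06 and 0.10 in these types. Fibroblast Ppara had a log2 difference of -0.79 (SE 0.27, edgeR adjusted p 0.37). It was at 10.4, 11.8 and 7.66 CPM in the female libraries and 16.99 and 14.996 CPM in the male ones.

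One gene of the wider pathway passed the test outside cardiomyocytes. Pdk4 in fibroblasts was at 33.7, 17.01 and 19.2 CPM in the female libraries and 40.6 and 39.7 in the male libraries. Its log2 difference was -1.24 (SE 0.18, edgeR adjusted p 0.034). This contrast comes from the libraries labelled Tg alone and does not use nTg female 1, at 33.7 CPM the highest of the female libraries. It does use Tg female 1, at 17.01 CPM, whose Ccna2 level goes against its label. Over 9 alternatives the difference was between -1.31 and -1.19. All 9 keep the genotype term or use only libraries labelled Tg. They therefore cannot show how nTg female 1 would change the difference. These include fits without each Tg library in turn, which keep 1 Tg library of that sex. The fibroblast level was 45.05% of that of cardiomyocytes in nTg female 1 and 4.52 to 7.69% in the Tg libraries, and in cardiomyocytes the male libraries were also the highest. The part of carried-over RNA in this difference was not tested. Whether the sex difference of Pdk4 itself differs between the 2 types was not tested.

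The library labelled nTg stood alone, so it was compared with those labelled Tg without a test. Hadha was at 340 CPM (exact Poisson 95% interval 329 to 352) in nTg female 1, against 511 and 509 CPM in Tg females 1 and 2 and 433 and 512 CPM in Tg males 1 and 2. Hadhb was at 233 CPM against 252 to 374, Acadl at 191 against 219 to 280 and Acadm at 253 against 279 to 332. For these 4 of the 10 genes the nTg library was below all others, while 15.7% of 5475 genes were. Cpt1b, Cpt2, Acadvl, Ppara, Ppargc1a and Esrra lay inside the range of the libraries labelled Tg. The log2 ratio to the mean of the libraries labelled Tg was -0.53 for Hadha, and the median over the 10 genes was -0.23 against 0.00 over the 5475 genes.

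The regulators in this library were close to the mean of the others. Their ratios were 0.03 for Ppara, 0.01 for Ppargc1a and 0.10 for Esrra on the log2 scale. Acaa2, which cleaves the last bond of a cycle, was at 80.0 CPM against 114 to 167 (log2 ratio -0.83), while Echs1, the hydratase, had a ratio of 0.07. The nTg library was below every library labelled Tg for all 4 genes of the carnitine shuttle and acyl-CoA entry list and 5 of the 8 further β-oxidation enzymes. It was below for 1 of 3 genes of electron transfer (Etfdh, at -0.81, with Etfa at -0.12 and Etfb at 0.06), 1 of 7 other receptors and coregulators, 0 of 3 of malonyl-CoA and energy sensing and 5 of 7 listed PPARα targets. Pdk4 was at 74.7 CPM against 221 to 897 (-2.94). With 1 such library, these values describe that library and not a genotype, and its Ccna2 level of 448 CPM goes against its label.

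Cardiomyocytes were divided again into 8 groups by similarity, called states here, of which 0, 1, 2 and 4 had at least 50 nuclei in every library. States 0 and 1 held 2531 and 1995 nuclei. State 2, with 580 nuclei, was led by Nppa, the atrial natriuretic peptide gene (330.1 CPM, 42.9 to 440.4 by library, against 12.9 and 15.2 in states 0 and 1), with the atrial genes Myl7 and Sln near 0 in all 3. Ppargc1a was at 621 ± 95.9 CPM in state 2, against 821 ± 106 in state 0 and 834 ± 98.2 in state 1. Hadha was at 357 ± 64.7 CPM against 463 ± 68.8 and 470 ± 101, and Acadm at 225 ± 31.5 against 291 ± 31.4 and 298 ± 41.7. In each of the 5 libraries, state 2 was below both states 0 and 1 for 5 of the 10 genes (Acadm, Hadha, Hadhb, Ppara and Ppargc1a), while 13.4% of 5475 genes were. The median log2 ratio of state 2 to these states was -0.28 over the 10 genes and -0.04 over the 5475. States were defined by other genes of the same nuclei, so no test was made.

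State 4 (794 nuclei) was below states 0 and 1 in all 5 libraries for 1 of the 10 genes, Ppargc1a at 662 ± 84.5 CPM, and for 7.67% of the 5475 genes, so that this count is near the background. None of the 10 was above in all libraries (2.3% of the 5475). Median depth in state 4 was 3180.5 to 5595 UMIs per nucleus, against 6543.5 to 8961.5 in state 0. State 3 (226 nuclei), led by repeat-rich transcripts and by Ccna2 at 4832 CPM, had no nucleus from the library labelled Tg female 1. In the 4 libraries that had it, Ppargc1a was at 806 ± 86.5 CPM against 838 ± 114 in state 0 of the same libraries. Acadm was at 307 ± 41.3 against 289 ± 35.9 and Hadha at 438 ± 95.5 against 451 ± 73.2. Ppargc1a and Hadha were lower in 3 of the 4 libraries, and Acadm was higher in 3. Cpt1b was lower in all 4 (222 ± 26.0 against 237 ± 34.6 CPM), and no other of the 10 genes had 1 direction in all 4. The share of all genes with 1 direction was not counted here.

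State 5 (196 nuclei) was led by the endothelial gene Flt1. All 8 listed endothelial markers were raised in it over the other cardiomyocyte nuclei, so the marker rule names it endothelial. Myh6 was at 12679 CPM in it, against 7537 in state 0. Of the 7 enzymes, 6 were higher in state 5 than in state 0 in all 4 libraries with at least 20 of its nuclei, while 12.6% of the 5475 genes were. In these libraries Acadvl was at 177 ± 40.6 CPM against 54.3 ± 12.5 in state 0, Acadl at 414 ± 47.7 against 224 ± 43.1, and Acadm at 462 ± 55.4 against 295 ± 35.04. Cpt1b was the exception, at 245 ± 27.8 CPM against 252 ± 28.1 and higher in 2 of the 4 libraries. Ppara (346 ± 64.1 against 455 ± 75.1 CPM) and Ppargc1a (679.8 ± 66.7 against 855 ± 85.5) were lower in all 4, as were 18.2% of the 5475 genes, and Esrra (106 ± 18.0 against 104 ± 8.54) was higher in 2. Flt1 was at 85.2 CPM in state 5, against 2.45 in state 0, and the median mitochondrial share was 2.32 to 3.45% over the 5 libraries, against 0.640 to 1.22% in state 0. The part of endothelial or mitochondria-bound RNA in these levels was not tested.

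**Figure D5:**
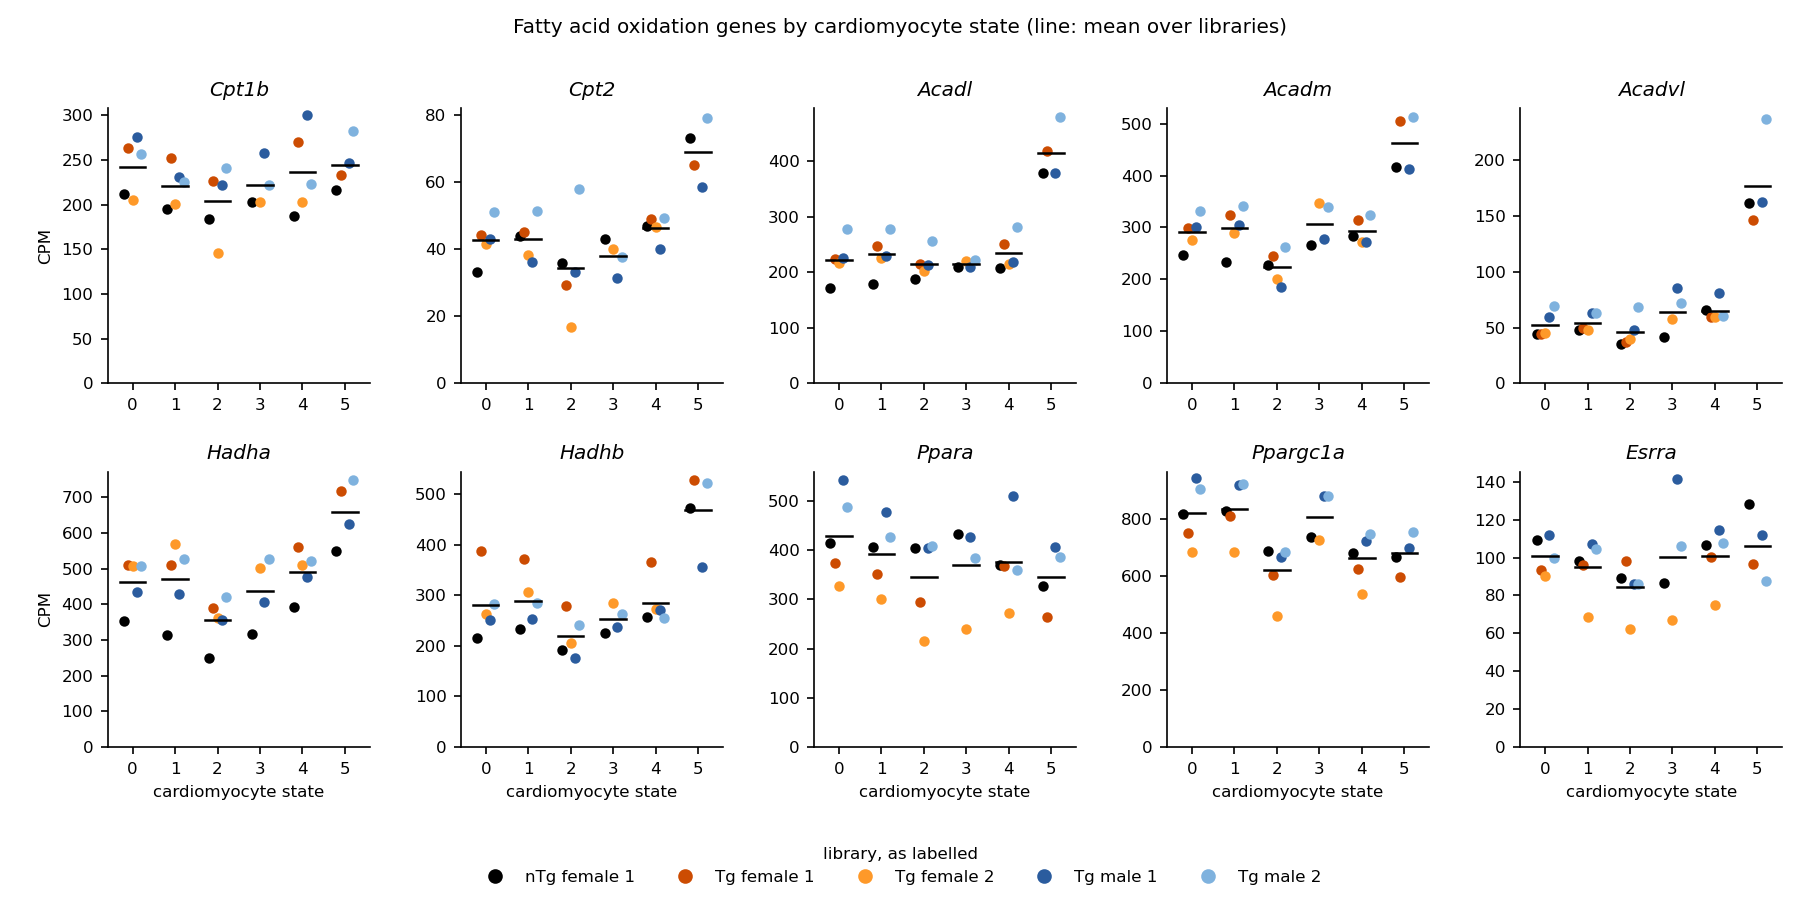
CPM of each gene (vertical axis from 0) in cardiomyocyte states 0 to 5 (horizontal axis), with 1 point per library and a line at the mean, for libraries with at least 20 nuclei in the state. Acadl, Acadm, Acadvl, Cpt2, Hadha and Hadhb are higher in state 5 than in state 0 in each of its 4 libraries, and in state 2 Hadha is at 357 CPM against 470 in state 1.

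A further 126 nuclei, led by Cntn2, a gene known from the conduction system, and Fgf12, stayed unnamed because only 2 of the 8 cardiomyocyte markers were raised in them. In the 3 libraries with at least 20 of these nuclei, Cpt1b was at 114 ± 21.3 CPM (94.95 to 137), against 196 to 255 in cardiomyocytes of the 5 libraries. Ppara was at 156 ± 33.5 CPM (123 to 190, against 296 to 494), Hadha at 232 ± 10.6 (219.9 to 239, against 340 to 512) and Ppargc1a at 474 ± 68.7 (396 to 527, against 645 to 874). None of these 4 ranges overlapped, but in the other 2 libraries, with fewer nuclei, Ppara reached 359 CPM. Acadl, at 244 ± 65.7 CPM (198 to 319), did overlap with cardiomyocytes (191 to 280). Their median depth was 1.96 times that of their libraries.

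The genes most like each of the 10 were sought by the correlation of log2(CPM + 1) over the 40 sums of a type and library, among 11362 genes. Those nearest to Cpt1b were BC002189, Ttn and 1700119I11Rik (r 0.96 to 0.95), and those nearest to Cpt2 were Plin3, Adprm and Mif4gd (r 0.82 to 0.80). For Acadl they included 1700119I11Rik and Hadha (r 0.91). For Acadm they were Ogdh, Myh7 and Tecr (r 0.95 to 0.93), where Ogdh encodes a subunit of the 2-oxoglutarate dehydrogenase complex of the citric acid cycle. Acadvl was most like Mybpc3, Adprhl1 and Mdh1 (r 0.85 to 0.84). Both trifunctional subunits had sarcomere genes among their nearest: Tnnt2, Ttn and 1700119I11Rik (r 0.97) for Hadha and Ttn, Hadha and Gm41717 (r 0.96) for Hadhb. Hadhb was not among the 3 nearest to Hadha. Ppara was most like Gnpat, Gm4814 and Cpeb3 (r 0.92 to 0.89), Ppargc1a most like Usp28, Pln and Tecr (r 0.93 to 0.92) and Esrra most like Plekhm2, Ywhag and Slc25a11 (r 0.87 to 0.85). Over the 4 larger cardiomyocyte states within libraries the nearest genes differed. They were Scn4b, Eif4b and E230001N04Rik for Cpt1b and Zfp592, Clk1 and Ndufa9 for Cpt2. The dehydrogenases gave Cmss1, Eno3 and Bcl2l11 for Acadl, Hsdl2, Dhtkd1 and Cmss1 for Acadm and Ndufs7, Pik3ip1 and Ndufa9 for Acadvl. The trifunctional subunits gave B430212C06Rik, Hrc and Dtnbp1 for Hadha and Zfyve21, Agpat3 and Gm31600 for Hadhb. The regulators gave Ptpn3, Lama5 and Sbk1 for Ppara, Arhgap26, Rapgef5 and Pde4d for Ppargc1a and Ube2l3, Fam8a1 and Sod2 for Esrra. Their mean r was between 0.81 and 0.98, over 4 points in each library and 6207 genes.

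Counts of overlapping genes can be shared. Trmt112 overlaps Esrra, Dvl2 overlaps Acadvl and Garem2 overlaps Hadha on the opposite strand, and Gm44502 overlaps Cpt1b on the same one. Whether counting used strand or introns is not given in the sources used here.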

How the data were processed

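The values are counts of UMIs per gene and barcode in single-nucleus libraries. The deposited matrices hold raw counts as whole numbers without normalization by the authors; they come from Cell Ranger 7.0.0 per the file headers, with genome build mm10 per the submitters' processing notes. Introns, strand and cell calling are not given in the sources used here. Of 8 matrices, 3 equalled another one and did not match their own barcode lists, and 5 were retained.

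The 10 genes and all lists were chosen with earlier results of these data known. Named genes are these 10; of the wider pathway, those with an adjusted p under 0.05 and Pdk4, Cpt1a, Acsl1, Slc25a20, Hadh, Acaa2, Echs1, Esrrg, Pparg and Ppargc1b; and the 3 nearest to each by correlation. Angptl4, Plin5, Ucp3 and the genes of electron transfer were named after their values were seen. Some genes that the rule or the lists include are not reported here. Scanpy 1.11.5 was used: doublets by scrublet (expected 6%; a library with under 0.5% called took the median threshold of the others, which applied to Tg female 2), 2000 variable genes without the 10, the pathway genes and sex-linked genes, 30 components centred per library, 15 neighbours and Leiden clusters at resolution 1 (cardiomyocytes 0.5). Called doublets were 7.63% to 11.4%. A name needed 3 raised markers. Sums per library and type were tested with edgeR 4.0.16 (quasi-likelihood, TMM, filterByExpr, Benjamini-Hochberg adjustment, threshold 0.05), with DESeq2 1.42.0 as an alternative, after the fit had been tested on simulated data. CPM are raw sums scaled to 1000000. Intervals are exact Poisson 95% intervals and cover counting error only. Coordinates are GENCODE genes and RefSeq windows on GRCm38, the build of mm10.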

Additional observations from a re-analysis of the deposited data

Results flagged for a closer look

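Among the 4 libraries labelled Tg, each gene was checked in each of 8 cell types for a library far from the other 3, and 4 of 80 sets stood out, near the 1 in 20 that chance gives. In cardiomyocytes Hadha was at 433 CPM in Tg male 1, with the others between 509 and 512. In endocardial nuclei Cpt2 was at 11.4 CPM in Tg male 1, with the others between 15.7 and 16.0. In pericytes Hadha was at 123.5 CPM in Tg female 1, with the others between 92.1 and 95.2. In smooth muscle Acadvl was at 42.7 CPM in Tg female 2, with the others between 11.8 and 13.6.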

How the results depend on the processing

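The 10 genes had no sex call in cardiomyocytes under any of 12 of the 13 alternatives run; without Tg female replicate 1 the count was 1 (Ppara), so that leaving out a library gave 0 to 1. The number of all genes called moved from 4 to 87 with DESeq2, 60 without the filter on low counts, 132 with the replicate block in the libraries labelled Tg and 0 with at least 10 UMIs in every library, where 938 genes had an unadjusted p under 0.05 in edgeR; leaving out a library gave 78 to 400. Over the 7 other types together it was 245, and 144 in the libraries labelled Tg alone, 392 with DESeq2, 1822 without the filter and 874 with the replicate block, with no call among the 10 genes. Deviations from the mean of each sex were hardly correlated between Tg libraries with the same replicate number. Their r was 0.046, a single value, because it is the same for both numbers by construction. The block changed no call of the 10. The cause of these moves was not tested. Each fit that left out a Tg library kept 1 Tg library of the same sex, so its calls rest on that library. Leaving out each Tg library in turn gave differences of -0.41 to 0.021 for Cpt1b (positive without Tg female replicate 2), -0.39 to 0.029 for Cpt2 (positive without Tg male replicate 2), -0.060 to 0.20 for Hadha (negative without Tg male replicate 1) and -0.049 to 0.47 for Hadhb (negative without Tg female replicate 1). With no genotype term, an alternative chosen after seeing the data, Hadha was at -0.092. The fibroblast fits without 1 library were also chosen after seeing the data. With doublets kept, the lowest cardiomyocyte library was above the other 7 types for 9 of the 10 genes. The median ratio of the nTg library stayed within -0.30 to -0.15, and the median spread over states within 0.32 to 0.45 (log2). Counts as low as those of Ppara in macrophages limit any ordering of types below the cardiomyocyte level.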
